A study of Homo sapiens with 6 samples.

Results

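The 10 genes described here encode surface ligands through which a tumour cell is read by T cells, macrophages and natural killer (NK) cells: CD276, VSIR, TNFRSF14, TNFSF9, CD47, PVR, NECTIN2, MICA, MICB and ULBP2. They were taken by gene symbol from a table of 58735 genes, each symbol matched 1 row, and all 10 had enough counts to be among the 15244 genes tested. RNA came from ACHN, an established human renal cancer cell line. There were 3 libraries of cells transfected with an siRNA (small interfering RNA) directed at OTUD1 and 3 of cells given a control siRNA, both sets grown in minimum essential medium with fetal bovine serum. OTUD1 is a deubiquitinase, which takes ubiquitin off its substrates. The study asked how loss of OTUD1 changes gene expression in these cells. One siRNA against OTUD1 is labelled, in 1 cell line, and nothing in the labels ties the libraries to separate cultures, so p-values here measure the spread between libraries, which may be technical. Total counts were 17243433 to 21013530 in the OTUD1 siRNA libraries and 16753495 to 18993534 in the control siRNA libraries.

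T cells and NK cells act on the balance of stimulating and inhibiting signals that ligands on a target cell send through paired receptors. Checkpoint ligands such as CD276 and VSIR restrain T cells, CD47 tells macrophages not to engulf the cell, and PVR and NECTIN2 are shared by the activating receptor CD226 and inhibiting receptors such as TIGIT. MICA, MICB and the ULBP proteins are stress-induced relatives of MHC class I that engage the activating NK receptor NKG2D, and tumour cells can shed them from the surface with metalloproteinases.

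Of the 10 ligand mRNAs, 5 were lower and 3 higher after OTUD1 siRNA. The costimulatory ligand TNFSF9 fell 1.81-fold, the nectin-like ligand PVR 1.51-fold and CD47 1.47-fold (edgeR log2 fold changes of -0.86, -0.59 and -0.55). MICA rose 1.39-fold, TNFRSF14 1.36-fold and VSIR 1.26-fold. MICB fell 1.10-fold, and CD276 was called 1.07-fold lower with TMM scaling, the scaling used throughout, but had small positive log2 fold changes after quantile normalization (0.019) and with library totals (0.034). NECTIN2 and ULBP2 did not pass.

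A gene was called when its adjusted p from edgeR's quasi-likelihood test was below 0.05. Much of the transcriptome differed, and of all genes tested 60.4% were called, 29.3% as higher and 31.1% as lower. Among the 10 ligands the shares were 80%, 30% and 50%, and each share rests on 10 genes, so that 1 call moves it by 10 percentage points. The ligands were chosen with earlier results of these data known. The median log2 fold change was -0.01 over the 10 ligands and 0.01 over all genes tested. The groups did not overlap for 9 ligands, 4 of them with the OTUD1 siRNA libraries on top and 5 with the control siRNA libraries on top, against 31.5% and 33% of all genes tested. With library totals in place of TMM the median log2 fold change of all genes moved up by 0.13, and 64.1% of called genes were then higher, against 48.4% with TMM.

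OTUD1 itself had 28, 17 and 25 counts in the OTUD1 siRNA libraries, against 61, 67 and 65 counts in the control siRNA libraries. Its mRNA fell 3.22-fold (log2 fold change -1.69 with a standard error of 0.24, adjusted p = 4.37e-07 by edgeR). Markers listed for other cell types gave little leukocyte RNA: PTPRC, CD3D, CD3E and MS4A1 had no count in any library, and the 12 leukocyte markers together made 1.34 to 2.39 CPM (each gene's count relative to the TMM-scaled library size) after OTUD1 siRNA and 1.92 to 2.39 CPM after control siRNA. The 10 renal epithelial markers, led by KRT8, KRT18 and PAX8, summed to 3210 to 3310 CPM after OTUD1 siRNA and 6400 to 6610 CPM after control siRNA. Not all were abundant. LRP2 was at 0 in all libraries, and CA9 had 1 count, in control siRNA replicate 2. CUBN had 1 to 9 counts in a library and CDH16 7 to 14. Of 7 renal epithelial markers tested, 4 were lower, KRT8 and KRT18 carrying most of the sum, and EPCAM (1.10-fold) and GGT1 (1.32-fold) were higher. Of the leukocyte markers 2 were tested, and CD8A was called higher, with 16, 12 and 11 counts after OTUD1 siRNA and 4, 4 and 1 counts after control siRNA. The 10 fibroblast and endothelial markers, most of it THY1, summed to 173 to 186 CPM after OTUD1 siRNA and 306 to 317 CPM after control siRNA. Of 5 tested, 2 were lower, and ACTA2 (2.47-fold) and PDGFRB (1.74-fold) were higher. The part of these shifts in the ligand results was not tested, and in a bulk culture fewer cells expressing a gene and less RNA per cell cannot be told apart.

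**Figure D1:**
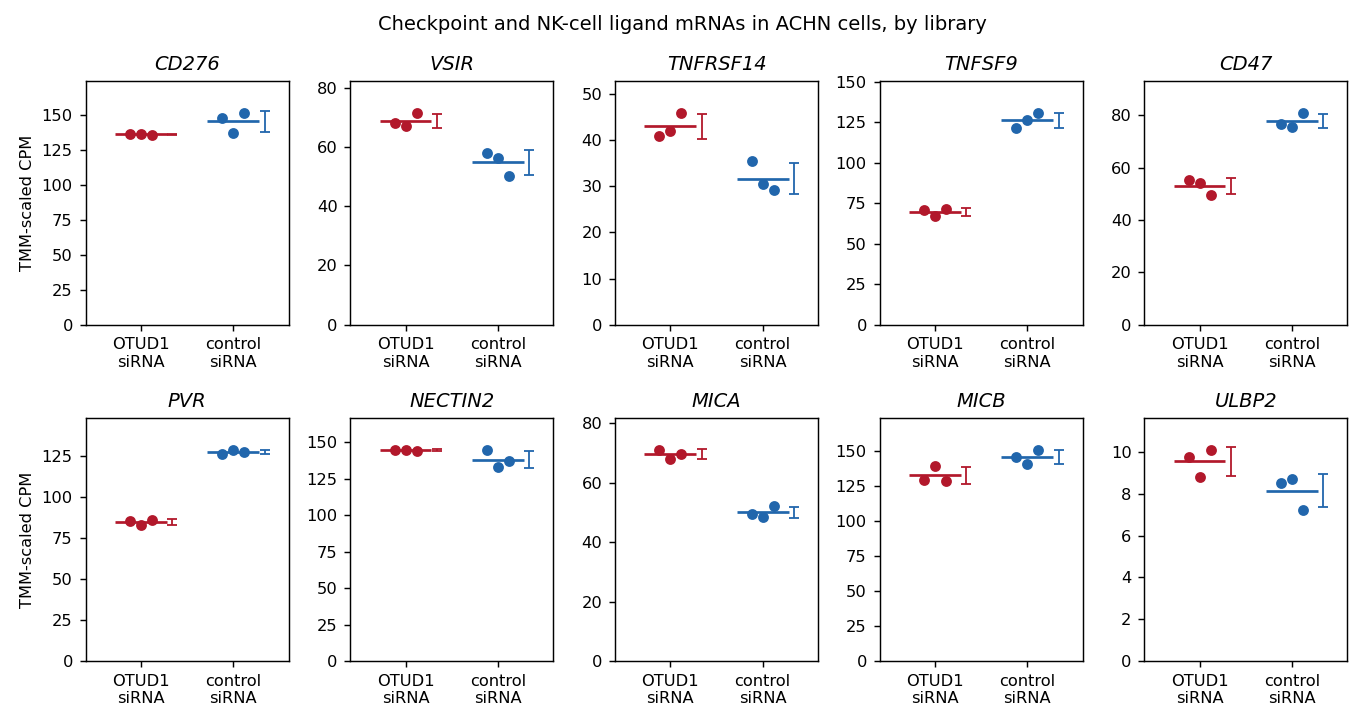
TMM-scaled CPM of the 10 ligand mRNAs in each library, with OTUD1 siRNA at the left and control siRNA at the right of each panel; points are libraries, the long line is the mean and the bar the SD (n = 3 each), and every axis starts at 0. The groups are separated for all ligands but NECTIN2, widest for TNFSF9, PVR, CD47 and MICA.

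CD276 and VSIR are members of the B7 family of immune checkpoints. In hg38 with GENCODE 29, CD276 spans bases 73683966 to 73714518 of chromosome 15 on the plus strand, and VSIR bases 71747559 to 71773498 of chromosome 10 on the minus strand. CD276 (B7-H3), a ligand abundant on many carcinomas, was at 136, 136 and 135 CPM in OTUD1 siRNA libraries 1 to 3, against 147, 137 and 151 CPM in control siRNA libraries 1 to 3. The OTUD1 siRNA libraries lay just below the lowest control library, and the control libraries spread far more widely (136 ± 0.492 CPM after OTUD1 siRNA and 145 ± 7.44 CPM after control siRNA, SD, n = 3 each). The log2 fold change was -0.09 (standard error 0.040 and adjusted p = 0.0416 with edgeR). This call ended when OTUD1 siRNA replicate 1, 2 or 3 was left out (-0.10, -0.10 and -0.09), or control replicate 1 or 3 (-0.09 and -0.06), and also with a minimum mean of 5 CPM (-0.05), with DESeq-type size factors (-0.09) and with DESeq2 (-0.09).

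VSIR encodes VISTA, a B7-family checkpoint that can act both as a ligand and as a receptor. It was at 68.2, 67.0 and 71.6 CPM in the OTUD1 siRNA libraries, against 58.0, 56.4 and 50.2 CPM in the control siRNA libraries. Every OTUD1 siRNA library stood above every control library, and the log2 fold change was 0.33 (standard error 0.055 and adjusted p = 6.69e-06 with edgeR). VSIR overlaps the span of CDH23, a cadherin gene of the opposite strand, with no exon base in common. CDH23 had 57, 49 and 50 counts after OTUD1 siRNA and 7, 17 and 14 after control siRNA. VSIR itself had 1290 to 1497 counts after OTUD1 siRNA and 860 to 1025 after control siRNA.

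TNFRSF14 and TNFSF9 belong to the tumour necrosis factor families. Both are on the plus strand, TNFRSF14 at bases 2555639 to 2565382 of chromosome 1 and TNFSF9 at 6530999 to 6535928 of chromosome 19. TNFRSF14 (HVEM) is a receptor of the cytokine LIGHT and at the same time a ligand of the inhibitory receptors BTLA and CD160. Its level was 40.9, 42.1 and 45.9 CPM after OTUD1 siRNA, against 35.4, 30.4 and 29.2 CPM after control siRNA, with no overlap. The log2 fold change was 0.44 (standard error 0.069 and adjusted p = 2.85e-06 with edgeR). Its antisense gene TNFRSF14-AS1 shares 831 exon bases with it and had 35, 18 and 13 counts after OTUD1 siRNA and 6, 12 and 3 after control siRNA. The strand setting of the counting is not given, so reads of the pair may be mixed. The TNFRSF14 counts were 828 to 899 in the OTUD1 siRNA libraries and 501 to 567 in the control siRNA libraries.

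TNFSF9 (4-1BB ligand) costimulates T cells through the receptor TNFRSF9. It showed the widest shift of the 10, at 71.0, 66.8 and 71.2 CPM after OTUD1 siRNA, against 122, 126 and 131 CPM after control siRNA. The groups were far apart, and the log2 fold change of -0.86 (standard error 0.044 and adjusted p = 4.38e-16 with edgeR) was larger in size than that of 87.2% of all genes tested. Its receptor TNFRSF9 was transcribed in the same cells, at 25.8, 23.0 and 24.9 CPM after OTUD1 siRNA and 21.6, 22.9 and 21.1 CPM after control siRNA, and did not pass although its groups did not overlap (log2 fold change 0.17, edgeR adjusted p = 0.0600).

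CD47, the phagocytosis checkpoint (chromosome 3, bases 108043094 to 108091862, minus strand), was at 55.4, 54.2 and 49.5 CPM in the OTUD1 siRNA libraries, against 76.8, 75.7 and 81.0 CPM in the control siRNA libraries. The 3 OTUD1 siRNA libraries were all lower, with a log2 fold change of -0.55 (standard error 0.052 and adjusted p = 2.55e-10 with edgeR). Of the CD47 partners tested, SIRPA and THBS1 fell and SIRPG did not pass. SIRPA, the inhibitory receptor of CD47 that is best known on macrophages, had 3986, 3562 and 3384 counts after OTUD1 siRNA and 5668, 6789 and 6145 counts after control siRNA, a 1.99-fold fall (log2 fold change -0.99 with a standard error of 0.034, adjusted p = 3.80e-20 by edgeR). Its near-identical relatives may share reads with it, so the value is uncertain.

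THBS1 encodes thrombospondin, a secreted protein that also binds CD47. It had 4788, 4546 and 4015 counts after OTUD1 siRNA and 10576, 12080 and 11059 counts after control siRNA, a 2.96-fold fall (edgeR adjusted p = 8.04e-26). QPCTL, the enzyme that forms the pyroglutamate at the start of CD47 that SIRPA recognises, and its relative QPCT moved the other way. QPCT was at 73.9 ± 0.280 CPM after OTUD1 siRNA and 63.9 ± 0.908 CPM after control siRNA (SD, n = 3 each), and QPCTL rose 1.26-fold (edgeR adjusted p = 0.00134).

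PVR and NECTIN2 share the receptors CD226 and TIGIT on T and NK cells, and only PVR passed the test. They lie near each other on the plus strand of chromosome 19, PVR at bases 44643798 to 44663583 and NECTIN2 at 44846175 to 44889228. PVR (CD155) was at 85.3, 82.9 and 86.1 CPM after OTUD1 siRNA, against 127, 129 and 127 CPM after control siRNA. The log2 fold change was -0.59 (standard error 0.040 and adjusted p = 2.60e-13 with edgeR), with SDs of 1.66 CPM after OTUD1 siRNA and 1.27 CPM after control siRNA. CEACAM19, which shares 121 exon bases with PVR on the same strand, had 41, 63 and 46 counts after OTUD1 siRNA and 23, 40 and 58 after control siRNA. PVR itself had 1552 to 1873 counts after OTUD1 siRNA and 2025 to 2346 after control siRNA. NECTIN2 (CD112) was at 145, 145 and 144 CPM after OTUD1 siRNA and 144, 133 and 137 CPM after control siRNA. Here the groups overlapped by 1 control library, and the log2 fold change was 0.07 with a 95% interval of -0.01 to 0.15 (edgeR adjusted p = 0.136). NECTIN2 passed as higher without control siRNA replicate 1 (0.10, adjusted p = 0.0287), with a minimum mean of 5 CPM (0.12), with library totals (0.20) and after quantile normalization (0.19).

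The ratio of counts of a pair of genes in a library does not depend on how libraries are scaled. There were 0.588, 0.573 and 0.598 PVR counts for each NECTIN2 count in the OTUD1 siRNA libraries, against 0.877, 0.971 and 0.930 in the control siRNA libraries. The log2 ratio differed by -0.66 between groups, well beyond the SDs of 0.0307 after OTUD1 siRNA and 0.0738 after control siRNA. An exact two-sided permutation test gave p = 0.1, the smallest that 3 against 3 libraries allow. PVR made up 36.9% ± 0.503 of the summed PVR and NECTIN2 CPM after OTUD1 siRNA and 48.1% ± 1.31 after control siRNA (SD, n = 3 each). These are shares of counts, not scaled to gene length. The summed level itself was 229 ± 1.53 CPM after OTUD1 siRNA and 266 ± 4.69 CPM after control siRNA.

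**Figure D2:**
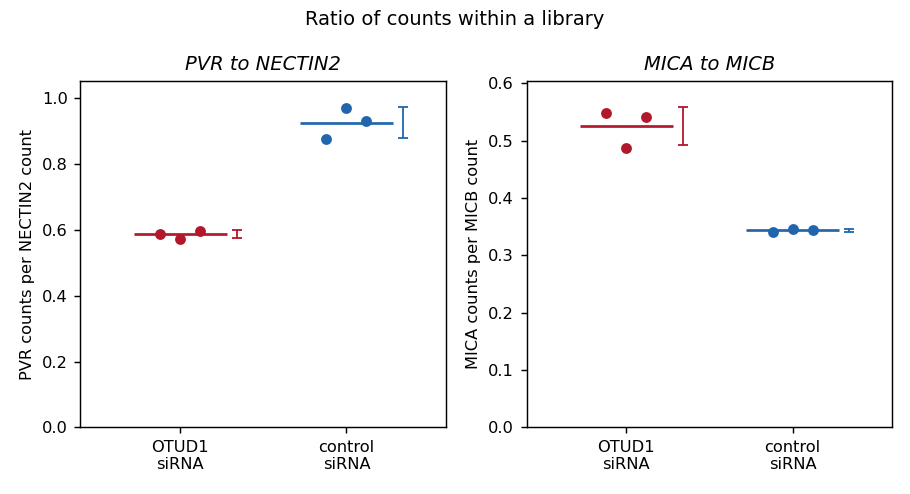
Counts of PVR per count of NECTIN2 (left) and of MICA per count of MICB (right) in each library, OTUD1 siRNA before control siRNA; points are libraries, long lines means and bars SDs (n = 3 each). The PVR ratio is 0.573 to 0.598 after OTUD1 siRNA and 0.877 to 0.971 after control siRNA, and the MICA ratio 0.487 to 0.549 after OTUD1 siRNA and 0.340 to 0.346 after control siRNA.

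MICA and MICB are neighbouring, closely related genes on chromosome 6 (hg38, 31399784 to 31415315 and 31494881 to 31511124, plus strand, in GENCODE 29). MICA rose relative to MICB, whose own small fall was not called in every setting. The promoters of both are shown because the pair moved differently while their upstream sequences are close relatives. Below are the 250 bases before each RefSeq start (GRCh38.p14, plus strand), MICA at chr6:31403345-31403594 and MICB at chr6:31497895-31498144. These windows lie inside the GENCODE spans, which start further upstream. Capitals mark a heat shock element core (GAANNTTC), the GC box GGGCGG and the CCAAT box, each on either strand.
MICA: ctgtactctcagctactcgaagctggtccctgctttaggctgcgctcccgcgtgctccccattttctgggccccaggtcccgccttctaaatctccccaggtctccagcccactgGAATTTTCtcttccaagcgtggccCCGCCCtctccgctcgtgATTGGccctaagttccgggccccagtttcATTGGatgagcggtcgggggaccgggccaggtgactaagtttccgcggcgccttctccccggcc
MICB: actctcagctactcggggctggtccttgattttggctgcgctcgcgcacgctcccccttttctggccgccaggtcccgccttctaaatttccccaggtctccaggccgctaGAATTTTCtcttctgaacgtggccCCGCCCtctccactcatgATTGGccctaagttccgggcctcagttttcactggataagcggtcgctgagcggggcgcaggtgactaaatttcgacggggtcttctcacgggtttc

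Aligned end to end, the MIC promoters were identical at 82.7% of 254 columns. Each held 1 heat shock element core, 135 bases before the start in MICA and 139 in MICB, and 1 GC box. MICA had 2 CCAAT boxes and MICB 1. Of all 35116 promoter entries of the same length in the table, 5.78% held the heat shock element core, 42.6% the GC box and 32% the CCAAT box. A match is only a match of letters.

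MICA was at 71.3, 67.9 and 69.8 CPM in the OTUD1 siRNA libraries, against 49.6, 48.7 and 52.1 CPM in the control siRNA libraries. All 3 OTUD1 siRNA libraries were higher, with a log2 fold change of 0.47 (standard error 0.051 and adjusted p = 3.16e-09 with edgeR). MICB was at 130, 140 and 129 CPM after OTUD1 siRNA and 146, 141 and 151 CPM after control siRNA. The MICB groups did not overlap but came within 2 CPM of each other, and the log2 fold change was -0.14 (standard error 0.041 and adjusted p = 0.00523 with edgeR). That call ended without control siRNA replicate 3 (-0.11, adjusted p = 0.0529), with a minimum mean of 5 CPM (-0.09), after quantile normalization (-0.02) and with library totals (-0.01).

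There were 0.549, 0.487 and 0.540 MICA counts for each MICB count after OTUD1 siRNA, against 0.340, 0.346 and 0.345 after control siRNA. The log2 ratio was 0.61 higher after OTUD1 siRNA, with SDs of 0.0941 after OTUD1 siRNA and 0.0118 after control siRNA, and the exact two-sided permutation p was again 0.1. Reads that fit both genes may have been split or dropped by the counting, so levels of both are uncertain. MICA also shares 62 exon bases with HCP5, a long non-coding RNA of the same strand, which had 101 to 126 counts after OTUD1 siRNA and 80 to 125 counts after control siRNA.

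ULBP2 is a ligand of NKG2D anchored in the membrane by glycosylphosphatidylinositol (GPI), and its gene spans bases 149942000 to 149949235 of chromosome 6 on the plus strand. It was at 9.74, 8.78 and 10.1 CPM after OTUD1 siRNA, against 8.50, 8.69 and 7.23 CPM after control siRNA. The lowest OTUD1 siRNA library lay barely above the highest control library. The log2 fold change was 0.23 with a 95% interval of -0.01 to 0.47 (edgeR adjusted p = 0.0951), and it passed with a minimum mean of 5 CPM (0.28) and with library totals (0.36).

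Of the other ULBP and RAET1 genes, ULBP3 fell 1.72-fold to 4.42 ± 1.38 CPM after OTUD1 siRNA, against 7.54 ± 0.578 CPM after control siRNA (SD, n = 3 each; edgeR adjusted p = 0.000180). ULBP1 did not pass (log2 fold change -0.09, adjusted p = 0.387), and RAET1E, RAET1G and RAET1L had too few counts to test. With TMM scaling the summed level of all 8 NKG2D ligand genes was 235, 237 and 233 CPM after OTUD1 siRNA. After control siRNA it was 231, 225 and 238 CPM, and these ranges overlapped. The overlap is shown for TMM only. The sum was not taken with library totals, which moved the median log2 fold change of all genes up by 0.13. Of the summed CPM MICA made up 29.7% ± 0.850 after OTUD1 siRNA and 21.6% ± 0.252 after control siRNA (SD, n = 3 each). These are shares of counts, not scaled to gene length, and so not shares of ligand transcripts.

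**Figure D3:**
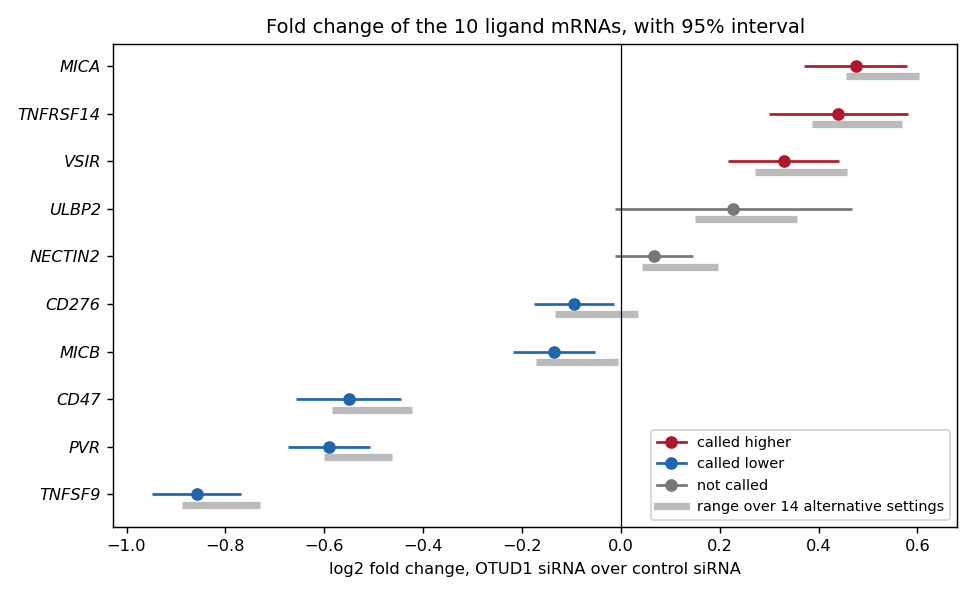
Log2 fold change of the 10 ligand mRNAs, OTUD1 siRNA over control siRNA, with the 95% interval from edgeR (thin line) and the range of the value over 14 alternative settings (grey bar); colours mark calls at an adjusted p of 0.05. The grey bars of MICA, TNFRSF14, VSIR, CD47, PVR and TNFSF9 stay clear of 0, that of MICB ends at -0.01 and that of CD276 crosses 0. Those of NECTIN2 (0.04 to 0.20) and ULBP2 (0.15 to 0.36), which were not called, also stay above 0.

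Levels of different genes can be compared only per length, here as CPM per kilobase of all annotated exon bases in GENCODE 29. After OTUD1 siRNA MICB was highest at 47.5 ± 2.08 CPM per kilobase, then TNFSF9 at 41.8 ± 1.49, NECTIN2 at 38.6 ± 0.128 and MICA at 29.2 ± 0.697 (SD, n = 3). CD276 at 24.5 ± 0.0893 and PVR at 24.1 ± 0.472 CPM per kilobase overlapped, VSIR stood at 13.4 ± 0.461, and ULBP2, TNFRSF14 and CD47, at 6.45 to 7.07, each overlapped the next in order. After control siRNA TNFSF9 led at 75.8 ± 2.78 CPM per kilobase, ahead of MICB at 52.2 ± 1.86. NECTIN2 at 36.8 ± 1.55 and PVR at 36.3 ± 0.361 CPM per kilobase did not differ beyond their spread, CD276 was at 26.2 ± 1.34 and MICA at 21.0 ± 0.745. VSIR and CD47 overlapped at 10.7 and 9.46 CPM per kilobase, and ULBP2 and TNFRSF14 at 6.03 and 5.10. In this order TNFSF9 held place 2 after OTUD1 siRNA and place 1 after control siRNA, and MICA place 4 after OTUD1 siRNA and place 6 after control siRNA.

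The length used decides some of these places. CD47 has 8225 exon bases in all but 1285 in its annotated principal transcript, and by the latter its level was 41.3 ± 2.41 CPM per kilobase after OTUD1 siRNA and 60.6 ± 2.18 after control siRNA. By principal transcripts NECTIN2 led after OTUD1 siRNA (68.4 ± 0.226 CPM per kilobase) and TNFSF9 still led after control siRNA. After OTUD1 siRNA TNFSF9 was then at place 4, overlapping CD47. MICA was at place 3 after OTUD1 siRNA and place 7 after control siRNA.

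In the 250 bases before the RefSeq starts of the 10 genes (11 entries, as CD276 has 2), the GC box was in 9 entries and the CCAAT box in 4. Among all promoter entries 42.6% held the GC box and 32% the CCAAT box. RefSeq and GENCODE starts differ, and the windows of MICA, MICB, TNFRSF14, CD276 and CD47 lie inside the GENCODE spans of these genes. None of the 11 held the STAT motif TTCNNNGAA, present in 6.57% of all promoter entries, the AP-1 motif TGANTCA, present in 6.57%, or the CRE motif TGACGTCA, present in 1.65%. The heat shock element core occurred in 3 entries, those of MICA, MICB and TNFSF9, against 5.78% of all entries. The MICA and MICB entries are close relatives, so their matches are not independent. A match to the NF-kB consensus was in 3 entries, those of CD276, TNFRSF14 and VSIR, against 9.96% of all entries. These counts hold for these letters in this window alone.

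The 3′ UTRs were searched for the 7-mers CAAACAA and AAACAAA, which an earlier look at these same data had picked out as frequent in genes that were lower after OTUD1 siRNA. CAAACAA was in no 3′ UTR of any annotated coding transcript of the 10 ligand genes, while 17% of the 12634 genes searched carried it. Of those carriers 50.7% were called lower and 19% higher, against 28.2% and 34.2% of genes with neither 7-mer. Since the 7-mers were picked from these same data, that contrast was built into the choice and is no separate support. The 3′ UTRs of the carriers were also longer (median 3053 bases, against 840 in genes with neither). AAACAAA without CAAACAA was in 22.1% of the genes searched and, among the ligands, in CD47 and VSIR, which moved in opposite directions. The sites are shown because they are the only matches among the 10 genes, with the 7-mer in capitals.
CD47: gattgaaaagtAAACAAAacccacatttc
VSIR: actttgcctcaAAACAAAttttaaaaaga

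The CD47 match lies in a transcript with a longer 3′ UTR than the principal one. TNFSF9, PVR, MICA, TNFRSF14, MICB, CD276, NECTIN2 and ULBP2 carried neither 7-mer in any annotated coding transcript.

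Of 33 further checkpoint ligand genes 14 had too few counts to test. Of the 19 tested, 11 fell (57.9%, against 31.1% of all genes tested), 1 rose (5.26%, against 29.3%) and 7 did not pass (median log2 fold change -0.40, against 0.01 over all genes tested). The list was chosen with earlier results of these data known, so these shares are no separate support for a trait of such ligands. CD70, the ligand of CD27, fell 2.27-fold to 41.0 ± 0.439 CPM after OTUD1 siRNA, against 92.9 ± 1.97 CPM after control siRNA (SD, n = 3 each; edgeR adjusted p = 2.28e-18). HMGB1, a ligand of TIM-3 with many processed pseudogenes that may take its reads, fell 1.37-fold, and the receptor CD40 1.31-fold. The butyrophilin BTN2A1 was at 38.9 ± 0.722 CPM after OTUD1 siRNA and 58.5 ± 1.08 CPM after control siRNA (SD, n = 3 each), and its log2 fold change was -0.59.

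The other falls were BTN2A2 (1.44-fold), CD24 (1.55-fold), BTN3A3 (1.36-fold), BTN3A1 (1.32-fold), PDCD1LG2 (1.72-fold), NECTIN3 (1.14-fold) and CD58 (1.27-fold). Butyrophilin genes of the same subfamily (BTN2A or BTN3A) are closely related and may share reads, so their separate values are uncertain. NECTIN3 no longer passed when control siRNA replicate 2 was left out (-0.12 on the log2 scale), with a minimum mean of 5 CPM (-0.13), with library totals (-0.05) or after quantile normalization (-0.11). CD58, whose groups overlapped, no longer passed when OTUD1 siRNA replicate 1 (-0.27) or 3 (-0.29) or control siRNA replicate 3 (-0.26) was left out, with DESeq2 (-0.34) or with library totals (-0.22). The single rise was TNFSF14, which encodes LIGHT, the cytokine that binds TNFRSF14. It had 23, 32 and 24 counts after OTUD1 siRNA and 10, 9 and 11 counts after control siRNA (log2 fold change 1.16 with a standard error of 0.36, adjusted p = 0.00616 by edgeR). CD274 (PD-L1) was at 11.3 CPM on average after OTUD1 siRNA and 9.73 CPM after control siRNA and did not pass (edgeR adjusted p = 0.0797). The count of rises was 2 without OTUD1 siRNA replicate 3 and 3 with library totals.

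Of 22 further genes for NK-cell ligands and adhesion partners, CD70 again included, 15 were tested. Of these 8 fell (53.3%, against 31.1% of all genes tested), 3 rose (20%, against 29.3%) and 4 did not pass (median log2 fold change -0.24). This list too was chosen with earlier results known, and the same limit holds for its shares. ICAM1, the adhesion ligand of LFA-1, showed the widest shift, at 12.9, 11.3 and 9.93 CPM after OTUD1 siRNA, against 37.0, 37.5 and 34.7 CPM after control siRNA. That is a 3.19-fold fall (log2 fold change -1.67 with a standard error of 0.085, adjusted p = 2.99e-16 by edgeR). CADM1, the ligand of CRTAM, fell 2.43-fold and CD59, an inhibitor of complement, 1.48-fold. NID1, BAG6 and CLEC2D fell 1.38-fold, 1.18-fold and 2.35-fold, with only 24 CLEC2D counts over the OTUD1 siRNA libraries and 49 over the control siRNA libraries. CLEC2D no longer passed when OTUD1 siRNA replicate 1 (-0.93 on the log2 scale) or control siRNA replicate 2 (-0.90) was left out.

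The 3 rises were those of HLA-E, ICAM2 and PDGFD. HLA-E, which engages the inhibitory receptor NKG2A, rose only 1.09-fold. ICAM2 and PDGFD, both at low levels, each rose 1.39-fold. ICAM2 was at 5.54 ± 0.274 CPM after OTUD1 siRNA and 3.97 ± 0.744 CPM after control siRNA, and PDGFD, whose groups overlapped, at 4.79 ± 0.589 CPM after OTUD1 siRNA and 3.43 ± 0.861 CPM after control siRNA (SD, n = 3 each). ICAM2 no longer passed with control siRNA replicate 1 left out (0.34 on the log2 scale) or after quantile normalization (0.34). PDGFD no longer passed with OTUD1 siRNA replicate 1 (0.42) or 2 (0.43) or control siRNA replicate 1 (0.34) or 3 (0.41) left out, with DESeq2 (0.48) or after quantile normalization (0.33). Without control siRNA replicate 1, with a minimum mean of 5 CPM or after quantile normalization, 1 gene of the list was higher. With that minimum ICAM2 and PDGFD were filtered out and not tested.

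**Figure D4:**
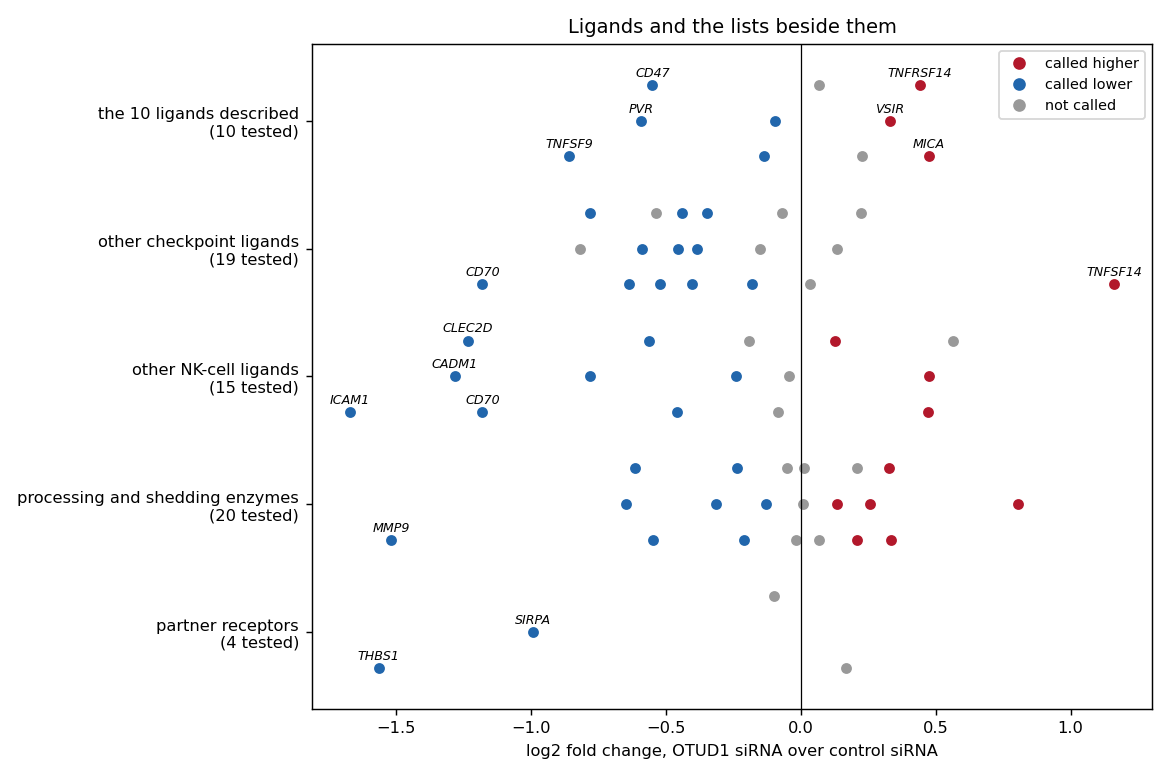
Log2 fold change, OTUD1 siRNA over control siRNA, of the tested genes of each list, 1 point per gene (CD70 is in 2 lists); the height within a row has no meaning, colours mark edgeR calls, and genes past 0.95 in size, or 0.3 among the 10 ligands, are named. Of the further checkpoint ligands 11 of 19 were called lower and 1 higher, and of the further NK-cell ligands 8 of 15 and 3.

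Of 21 genes that process, anchor or shed such ligands 20 were tested, with 8 lower (40%), 6 higher (30%) and 6 not passing (median log2 fold change -0.01). These shares lie near those of all genes tested, 31.1% lower and 29.3% higher. The sheddase ADAM10, one of the metalloproteinases that release NKG2D ligands, was at 154, 154 and 150 CPM after OTUD1 siRNA, against 219, 224 and 227 CPM after control siRNA. Its 1.46-fold fall (edgeR adjusted p = 4.77e-14) came with falls of ADAM17 (1.24-fold) and ADAM9 (1.18-fold), the last of which did not pass after quantile normalization (-0.0024 on the log2 scale). MMP9 fell 2.86-fold, with 10, 10 and 12 counts after OTUD1 siRNA and 30, 33 and 16 after control siRNA, while MMP14 did not pass.

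STT3B, a catalytic subunit of N-glycosylation, fell 1.53-fold and CMTM4, a stabiliser of PD-L1, 1.57-fold. RHBDF2 was 1.16-fold lower but not called with library totals, and STT3A was 1.09-fold lower with TMM scaling but stood at 0.00032 with library totals and 0.023 after quantile normalization on the log2 scale. GPAA1, a subunit of the GPI transamidase that attaches the anchor carried by ULBP2, was at 145, 143 and 142 CPM after OTUD1 siRNA, against 84.8, 79.5 and 81.5 CPM after control siRNA (log2 fold change 0.81 with a standard error of 0.041, adjusted p = 2.88e-16 by edgeR). The transamidase subunits PIGU and PIGS rose 1.25-fold and 1.10-fold, RHBDF1 rose 1.19-fold and QPCT 1.16-fold, and PIGK and PIGT did not pass. The number of genes of this list called higher was 12 with library totals and 10 after quantile normalization.

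Most receptors for these ligands were at or near 0 in the cells. Of 12 partner genes listed, 8 had too few counts to test: BTLA had none, TIGIT 1 in OTUD1 siRNA replicate 1 and none elsewhere, and CD226, CD96, PVRIG, CD160, KLRK1 and HCST at most 5 in any library. Only SIRPA, THBS1, SIRPG and TNFRSF9 could be tested, and SIRPG, with 27, 30 and 23 counts after OTUD1 siRNA and 28, 24 and 21 counts after control siRNA, did not pass.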

How the data were processed

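The values are raw counts as deposited, 1 whole number per gene and library with totals that differ between libraries, although the table is named for FPKM. Per the submitters' processing notes the build is hg38. Per the labels' protocols, libraries came from a directional kit. The sources used here name no aligner, counting tool, strand setting or annotation.

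Counts were analysed with edgeR 4.0.16 in R 4.3.3: filterByExpr (minimum 10 counts, scaled to the median library, in 3 libraries and 15 in total), TMM scaling, and a two-sided quasi-likelihood test whose p-values were adjusted by Benjamini and Hochberg over the 15244 genes tested. Normalization factors were 1.045 to 1.046 (OTUD1 siRNA) and 0.955 to 0.9573 (control siRNA). Standard errors were derived from F statistics, and 95% intervals from a t quantile. A count of 3 equals 0.137 to 0.188 CPM. The fit was tested on simulated data. No library was a copy of another: within groups the mean chi-square per gene was 2.05 to 3.72, above the sampling noise.

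The ligand genes and lists were chosen with earlier results of these data known. The rule for named genes took every ligand, OTUD1, and up to 4 called genes per further list and direction by adjusted p, the other called ones by fold. Loci, exon lengths and 3′ UTRs (at least 50 bases) are from GENCODE 29, whose symbols matched 99.95% of rows, and promoters from RefSeq, GRCh38.p14. Limma 3.58.1 and DESeq2 1.42.0 were alternatives.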

Additional observations from a re-analysis of the deposited data

How the results depend on the processing

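Over 14 alternatives, 6 of the 10 ligands (TNFSF9, PVR, CD47, MICA, TNFRSF14 and VSIR) kept direction and call. CD276 was at 0.034 with library totals and 0.019 after quantile normalization, against -0.09 with TMM. Ligands called higher, 3 with TMM, numbered 5 with a minimum mean of 5 CPM and 5 with library totals. Ligands called lower, 5 with TMM, numbered 3 with a minimum mean of 5 CPM, 3 with library totals and 3 after quantile normalization. Leaving out 1 library gave 3 to 4 higher and 3 to 5 lower, the lowest without control siRNA replicate 3. Further checkpoint ligands called higher were 3 with library totals and 1 to 2 with 1 library left out, against 1. Further NK-cell ligands called higher were 1 with a minimum mean of 5 CPM, 1 after quantile normalization and 1 to 3 with 1 library left out, against 3. The minimum of 5 CPM removed ICAM2 and PDGFD before testing. Processing and shedding genes called higher were 12 with library totals and 10 after quantile normalization, against 6. STT3A had 0.00032 and 0.023 in those settings, against -0.13. Causes were not tested. Of 36 called genes of the further lists, 28 kept direction and call throughout.

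Replicate numbers did not pair the libraries: correlations of deviations between libraries with the same number were -0.0229, 0.0178 and -0.0182. With the replicate number as a block, 3 ligands were higher and 5 lower, and the further lists had 1 and 11, 3 and 8, and 6 and 8. The log2 ratios differed by -0.66 (PVR to NECTIN2) and 0.61 (MICA to MICB) between groups. A block cannot change these ratio differences, since a mean of paired differences equals the difference of group means, so they do not test the pairing. Left-out libraries gave ratio differences of -0.70 to -0.62 (PVR to NECTIN2) and 0.58 to 0.66 (MICA to MICB). Low counts limit TNFSF14, CLEC2D and MMP9.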
